A study of Rattus norvegicus with 12 samples.

Results

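The comparison described here set rat tissue around MFN+GelMA implants against tissue around GelMA implants 4 weeks after implantation. GelMA, or gelatin methacryloyl, is a light-cured hydrogel and was present in both groups. What MFN stands for is not written out in the labels, although the series title speaks of a microfiber. RNA sequencing gave 3 libraries per group at 4 weeks, called GelMA and MFN+GelMA from here on, and 3 per group at 2 weeks, so that 6 of 12 libraries carried the comparison. The labels give no strain, sex or age beyond a specific-pathogen-free animal room, and name the tissue as subcutaneous tissue or muscle. Genes with at least 1 FPKM (fragments scaled to transcript length and to the size of the library) in at least 3 of the 6 libraries were compared, which left 11735 of 21797 genes. Whether the 3 libraries of a group stem from different animals is not stated, so p-values reflect nothing beyond the spread among these samples, which may be technical. Values of a group are given in the order of replicates 1, 2 and 3.

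Implanted material is met by macrophages, which fuse into multinucleated giant cells where particles or fibres are too large to engulf, while fibroblasts lay down a capsule of collagen around it. Giant cells and bone-resorbing osteoclasts share an origin in the macrophage lineage and signals through M-CSF and ITAM adaptors. They also share a secretory programme of acid, cathepsin K and matrix metalloproteinases. RANKL is a signal that drives the fusion of osteoclasts. Uninjured connective tissue instead holds fibroblasts that keep up elastic fibres and small proteoglycans, beside a network of vessels with their pericytes. In bulk tissue fewer cells of a type and less RNA per cell cannot be told apart, and this holds for every gene group below.

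The labelled tissue was checked against its markers. Skeletal muscle was close to absent, with the muscle actin gene Acta1 at 0.662, 0.168 and 0.219 FPKM in GelMA and 0, 0.303 and 0.596 FPKM in MFN+GelMA. Of 18 genes of the muscle fibre list 4 reached the filter. The list summed to 15.1 to 42.3 FPKM in the 6 libraries of 4 weeks. The basal keratin gene Krt5 was listed at 0 in all 6 libraries. Fat was uneven. Adipoq, which encodes adiponectin, stood at 32, 2118 and 18 FPKM in GelMA and 1.68, 8.48 and 10.4 FPKM in MFN+GelMA, so that GelMA replicate 2 stood apart from the other 5 libraries and may hold a share of fat tissue, which was not tested. The summed level of the white adipocyte list was 22559 FPKM in that library, 2499.9 and 2747 FPKM in the other GelMA libraries and 4985 to 6163 FPKM in MFN+GelMA. Most of the MFN+GelMA sum was Fabp4, a gene that macrophages also express. Without Fabp4 the list summed to 14223 FPKM in GelMA replicate 2, to 499.8 and 347 FPKM in GelMA replicates 1 and 3, and to 157, 199 and 241 FPKM in MFN+GelMA. Every count below was therefore also taken without GelMA replicate 2.

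Totals of the deposited count-like values were 11174499 to 13025655 in the libraries of 4 weeks, and 11419 to 11687 genes per library reached 1 FPKM. Mitochondrial genes took 22.4% to 32.7% of summed FPKM, most of all in MFN+GelMA replicate 1. On the first principal component of the 6 libraries, with 64.4% of the variance, GelMA lay at -38.5, -51.9 and -19.1 and MFN+GelMA at 41.2, 34.3 and 34.1. GelMA replicate 3 was the GelMA library nearest to MFN+GelMA in 72.0% of the genes called higher and in 58.4% of those called lower. Replicate 2 of GelMA separated on the second component (17.4% of the variance) at -34.6. Col1a1 was listed at 0 in GelMA replicate 1 and Col3a1 in GelMA replicates 1 and 3, although the 4W libraries with a value had at least 3449 FPKM, and neither gene is read here because such a 0 may stem from a failed estimate.

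By limma, 3035 of 11735 genes differed between the materials at 4 weeks (25.9%; adjusted p under 0.05). Of these 1891 were higher in MFN+GelMA (16.1% of tested genes) and 1144 were lower (9.75%). These shares are the background against which each gene group below is read, together with the median over all tested genes, a log2 fold change of 0.05. The fold changes are on the log2(FPKM + 1) scale, which understates the change of low genes. The groups did not overlap in 5426 genes (46.2%), among them 3008 of the 3035 called genes. Where a called gene is said below not to overlap, this therefore adds little to its call. A difference of at least 1 on the log2 scale was called in 635 higher (5.41%) and 539 lower genes (4.59%). Of the tested genes 139 passed the filter only through MFN+GelMA and 141 only through GelMA, so a difference in these was built into the filter. Without GelMA replicate 2, 2348 of the 3035 genes were still called, 1510 of them higher and 838 lower, and none of the 3035 was called in the opposite direction. With the 4-week libraries left out 1 at a time, 1844 of the 3035 were called in all 6 repeats. The number of lower genes was 749 without GelMA replicate 1 and 743 without MFN+GelMA replicate 1. Quantile normalisation moved the split to 1654 higher and 1403 lower genes, and TMM (trimmed mean) scaling to 1539 higher and 1454 lower.

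**Figure D1:**
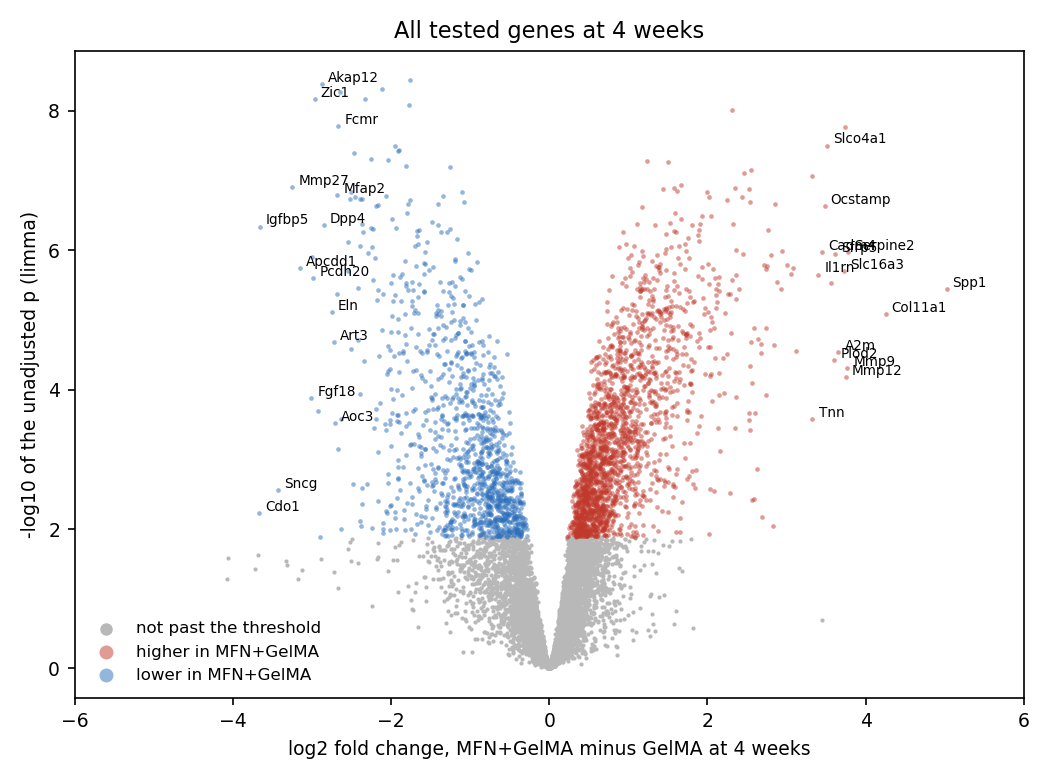
Each point is 1 of the 11735 tested genes (Col3a1, whose listed zeros put it beyond the axis, is not drawn). The horizontal axis is the log2 fold change of MFN+GelMA minus GelMA at 4 weeks and the vertical axis is -log10 of the unadjusted limma p, with 1891 higher genes in red, 1144 lower genes in blue, genes past neither in grey, and 29 of the leading genes named.

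Leading genes were picked among called genes whose groups did not overlap and whose call held without GelMA replicate 2. Both traits were thus fixed by the choice. The leading higher genes included secreted proteins of macrophages and giant cells. Spp1, which encodes osteopontin (ENSRNOG00000043451, rn6 chromosome 14, 6673685 to 6679901), stood at 68.3, 39.4 and 177 FPKM in GelMA and 2672, 3087 and 2084 FPKM in MFN+GelMA. The lowest MFN+GelMA library lay far above the highest GelMA library. Its log2 fold change was 5.02 (SE 0.60, adjusted p = 0.000194) in limma's test. Mmp12, the macrophage elastase gene (ENSRNOG00000030187, rn6 chromosome 8, 5606591 to 5616493), stood at 191, 79.9 and 385 FPKM in GelMA and 3116, 2220.2 and 2106 FPKM in MFN+GelMA, with a log2 fold change of 3.75 (SE 0.61, adjusted p = 0.0011). The gelatinase gene Mmp9 (ENSRNOG00000017539, rn6 chromosome 3, 161413297 to 161421520) stood at 29.1, 12.8 and 121 FPKM in GelMA and 393, 676 and 482 FPKM in MFN+GelMA, with a log2 fold change of 3.77 (SE 0.60, adjusted p = 0.000935). In all 3 genes GelMA replicate 3 was the highest of its group and still lay under every MFN+GelMA library. Il1rn, which encodes the interleukin-1 receptor antagonist, stood at 37.3, 29.1 and 68.7 FPKM in GelMA and 441, 438 and 486 FPKM in MFN+GelMA and changed by 3.40 (SE 0.39, adjusted p = 0.000158) on the log2 scale.

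Ocstamp, a membrane protein needed for the fusion of osteoclasts and giant cells (ENSRNOG00000019110, rn6 chromosome 3, 162075339 to 162080192), was near 0 in GelMA at 0.138, 0.189 and 1.04 FPKM. In MFN+GelMA it stood at 17.3, 18.3 and 9.96 FPKM, and its log2 fold change was 3.48 (SE 0.32, adjusted p = 5.17e-05). The lactate exporter gene Slc16a3 (ENSRNOG00000036677, rn6 chromosome 10, 110138585 to 110148358) stood at 1.7, 1.14 and 6.15 FPKM in GelMA and 31.3, 60.7 and 46.9 FPKM in MFN+GelMA, with a log2 fold change of 3.73 (SE 0.42, adjusted p = 0.000149). Matrix genes were also among the leaders. Col11a1, a fibrillar collagen known from cartilage and from activated fibroblasts (ENSRNOG00000023148, rn6 chromosome 2, 216863427 to 217056523), stood at 0.659, 0.402 and 2.32 FPKM in GelMA and 46.1, 30.2 and 35.3 FPKM in MFN+GelMA and changed by 4.25 (SE 0.56, adjusted p = 0.0003). Plod2, the lysyl hydroxylase of collagen telopeptides, stood at 1.64, 0.904 and 3.03 FPKM in GelMA and 32.9, 40.6 and 24.7 FPKM in MFN+GelMA and changed by 3.60 (SE 0.55, adjusted p = 0.000778). Tnn, tenascin N, stood at 5.71, 2.15 and 18.3 FPKM in GelMA and 57.9, 111 and 61.7 FPKM in MFN+GelMA and changed by 3.33 (SE 0.64, adjusted p = 0.00289). In all 3 matrix genes GelMA replicate 2 was the lowest library and replicate 3 the highest of its group.

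The protease inhibitor genes Serpine2 and A2m also rose. Serpine2 stood at 45.9, 25.5 and 104 FPKM in GelMA and 682, 763 and 647 FPKM in MFN+GelMA. A2m stood at 0.0571, 0.0156 and 0.922 FPKM in GelMA and 28.3, 4.37 and 25.2 FPKM in MFN+GelMA. A2m varied within MFN+GelMA, where replicate 2 lay well under the other libraries and above all of GelMA. A2m was under 1 FPKM in all of GelMA and passed the filter only through MFN+GelMA, so its difference was built in. Their log2 fold changes were 3.78 (adjusted p = 0.000114) and 3.66 (adjusted p = 0.000665). Other leading genes that rose were Sfrp5, a secreted Wnt antagonist (3.61), Slco4a1, an organic anion transporter (3.51), and Cadm4, a cell adhesion gene (3.45). All 3 had adjusted p-values of at most 0.000116 by limma.

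The leading lower genes included genes of fibroblasts and of the elastic matrix. Igfbp5, which binds insulin-like growth factors outside cells (ENSRNOG00000017206, rn6 chromosome 9, 80150210 to 80167033), stood at 1961, 1582 and 1256 FPKM in GelMA and 78, 190.1 and 127 FPKM in MFN+GelMA. The groups were far apart, and the log2 fold change was -3.66 (SE 0.36, adjusted p = 7.58e-05). Eln, which encodes elastin (ENSRNOG00000001469, rn6 chromosome 12, 24978482 to 25021863), stood at 151, 72.7 and 126 FPKM in GelMA and 12.2, 17.4 and 18.4 FPKM in MFN+GelMA, with a log2 fold change of -2.75 (SE 0.36, adjusted p = 0.000291). Mfap2, a glycoprotein of microfibrils, stood at 155, 91.1 and 116 FPKM in GelMA and 13.7, 22.2 and 17.5 FPKM in MFN+GelMA, with a log2 fold change of -2.68 (SE 0.24, adjusted p = 5.02e-05). Elastin varied within GelMA, and replicate 2 was the lowest of its group in both elastic fibre genes. Dpp4, a surface peptidase of fibroblast progenitors (ENSRNOG00000030763, rn6 chromosome 3, 48291054 to 48372672), stood at 78.6, 40.1 and 53.2 FPKM in GelMA and 7.09, 9.35 and 4.7 FPKM in MFN+GelMA and changed by -2.85 (SE 0.28, adjusted p = 7.43e-05). Zic1, a developmental zinc finger factor, stood at 13.8, 10.4 and 11.1 FPKM in GelMA and 0.601, 1.08 and 0.287 FPKM in MFN+GelMA and changed by -2.97 (SE 0.20, adjusted p = 1.34e-05).

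Further lower leaders were Mmp27 (-3.25), the Wnt inhibitor gene Apcdd1 (-3.15), the growth factor gene Fgf18 (-3.01), the protocadherin gene Pcdh20 (-2.98), the scaffold gene Akap12 (-2.88) and Fcmr, the Fc receptor of IgM (-2.67). Fgf18 and Pcdh20 passed the filter only through GelMA, so their differences were built in. Art3 (-2.72) and Aoc3 (-2.71) also fell, and both overlap other rows of the table, where the division of reads could not be checked. Cdo1, a cysteine dioxygenase, and Sncg, gamma-synuclein, followed the fat-rich library. Cdo1 stood at 35.1, 785 and 20.2 FPKM in GelMA and 3.35, 8.08 and 6.4 FPKM in MFN+GelMA. Sncg stood at 85.7, 1264 and 63.9 FPKM in GelMA and 10.7, 18.8 and 23.5 FPKM in MFN+GelMA. GelMA replicate 2 was far above all others in both. Their log2 fold changes were -3.67 and -3.43, and without GelMA replicate 2 they were -2.06 (adjusted p = 0.0297) and -2.07 (adjusted p = 0.00915). Both missed the threshold without MFN+GelMA replicate 1, at an adjusted p of 0.0899 for Cdo1 and 0.0606 for Sncg.

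**Figure D2:**
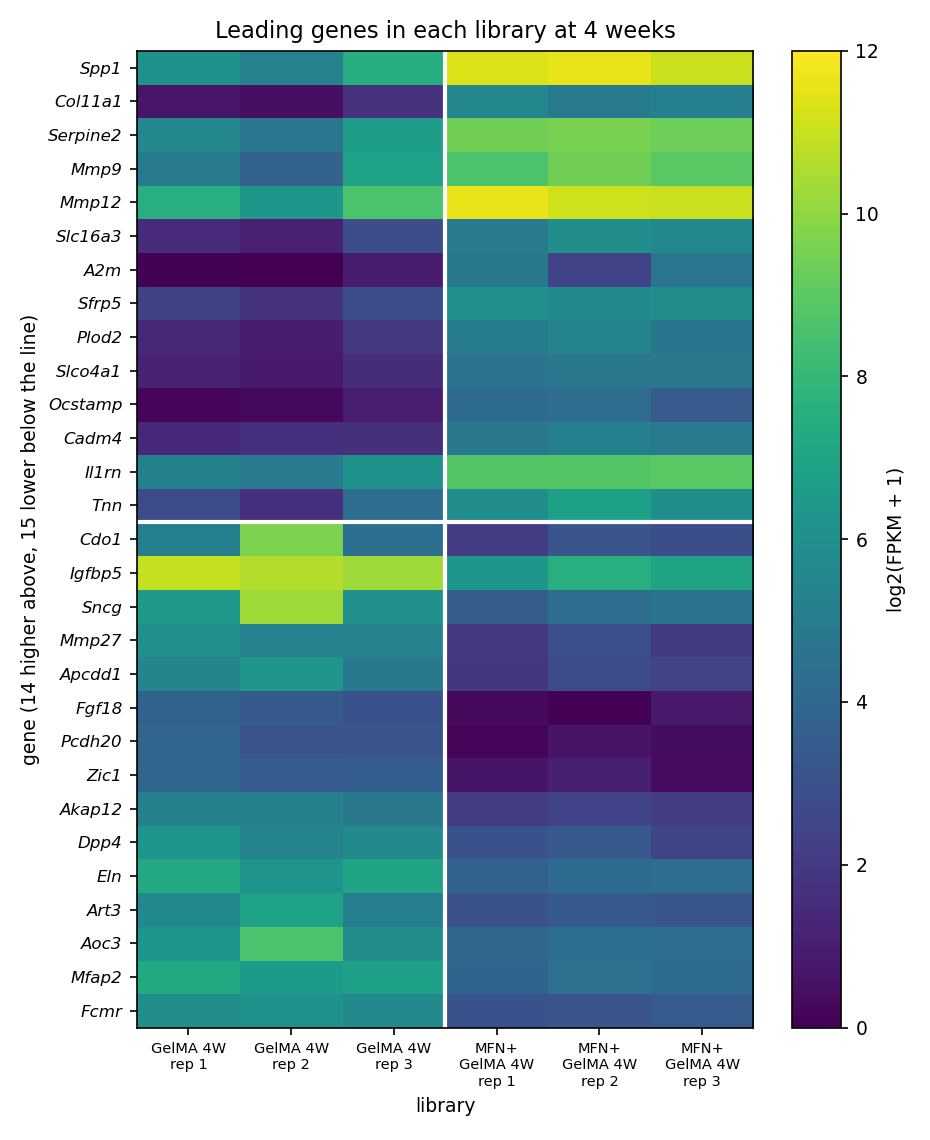
Of the leading genes, 14 higher and 15 lower ones (rows) in the 6 libraries of 4 weeks (columns), coloured by log2(FPKM + 1). Every gene separates the groups, which the rule for leading genes required. GelMA replicate 3 is the nearest to MFN+GelMA in most higher genes, and Cdo1, Sncg and Aoc3 are highest in GelMA replicate 2.

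Markers shared by macrophages and other leukocytes rose. Of 20 listed macrophage genes 17 were tested, 10 rose and 0 fell, with a median log2 fold change of 0.86. Cybb, a subunit of the phagocyte oxidase, stood at 217, 190.4 and 360.1 FPKM in GelMA and 1004, 821 and 935 FPKM in MFN+GelMA and changed by 1.89 (SE 0.19, adjusted p = 9.47e-05). Ptprc, the leukocyte antigen CD45, stood at 34, 36.1 and 52.9 FPKM in GelMA and 124, 116 and 108 FPKM in MFN+GelMA and changed by 1.51 (SE 0.19, adjusted p = 0.00022). Laptm5, a lysosomal membrane gene of leukocytes, changed by 1.27, and Spi1, the myeloid transcription factor PU.1, by 1.12. The same list in summed FPKM was 6669 to 11559 in GelMA and 19271 to 20150.1 in MFN+GelMA. The part of this shift in the macrophage gene groups that follow was not tested.

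Genes of receptors that sense antibodies, fungal sugars and debris, and of their ITAM adaptors and signalling partners, rose in most members. The list also holds the inhibitory receptor genes Fcgr2b, Pirb and Lilrb4. All 16 listed Fc receptor and ITAM genes were tested, and 14 of them rose (12 without GelMA replicate 2), with a median of 1.06. The kinase gene Syk, which couples these receptors to their signals, stood at 21.1, 20.5 and 32.4 FPKM in GelMA and 68.6, 65.2 and 72.5 FPKM in MFN+GelMA and changed by 1.47 (SE 0.15, adjusted p = 7.95e-05). Clec4e, a receptor for glycolipids and dead cells, stood at 8.69, 7.04 and 15.7 FPKM in GelMA and 56.3, 51 and 49.6 FPKM in MFN+GelMA and changed by 2.29 (SE 0.28, adjusted p = 0.00021). The beta-glucan receptor gene Clec7a changed by 2.25 and the phospholipase gene Plcg2 by 0.90.

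Osteoclast and giant cell genes rose in most tested members. Of 16 listed genes 14 were tested, 11 rose (10 without GelMA replicate 2) and 0 fell, with a median of 1.03. Ctsk, the collagen-cleaving cathepsin K, stood at 347, 182 and 501 FPKM in GelMA and 916, 1153 and 1037 FPKM in MFN+GelMA and changed by 1.70 (SE 0.29, adjusted p = 0.00134). Acp5, tartrate-resistant acid phosphatase, stood at 41.1, 57.1 and 80.8 FPKM in GelMA and 156, 263 and 193 FPKM in MFN+GelMA and changed by 1.78 (SE 0.24, adjusted p = 0.000378). Some defining osteoclast genes stayed close to 0. Dcstamp, the partner of Ocstamp in fusion, was at 0, 0.0835 and 0 FPKM in GelMA and 0.0904, 0.815 and 0.405 FPKM in MFN+GelMA and did not reach the filter. The other untested member, Calcr, the calcitonin receptor, was under 1 FPKM in all 6 libraries.

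Ligands and receptors on the list of the M-CSF and RANKL axis moved both ways. The list also holds the GM-CSF and G-CSF genes Csf2, Csf2ra, Csf2rb, Csf3 and Csf3r, and the counts include those that were tested. Of 7 tested genes 4 rose and 2 fell. The receptor gene Tnfrsf11a (RANK) stood at 5.76, 3.66 and 5.97 FPKM in GelMA and 10.3, 11.4 and 15.7 FPKM in MFN+GelMA and changed by 1.14 (SE 0.20, adjusted p = 0.00182). Csf1r, the receptor of M-CSF, stood at 178, 196 and 225 FPKM in GelMA and 305, 309 and 357 FPKM in MFN+GelMA and changed by 0.70 (SE 0.15, adjusted p = 0.00544). Both receptors were higher in each MFN+GelMA library than in any GelMA library. Tnfrsf11b, the decoy receptor osteoprotegerin that blocks RANKL, stood at 29.9, 19.6 and 25.7 FPKM in GelMA and 9.88, 8.63 and 9.02 FPKM in MFN+GelMA and changed by -1.34 (SE 0.22, adjusted p = 0.00105), and Il34, the second ligand of the M-CSF receptor, by -0.90 (SE 0.22, adjusted p = 0.0119). The RANKL gene itself, Tnfsf11, was at 0, 0 and 0 FPKM in GelMA and 0.199, 0 and 0.982 FPKM in MFN+GelMA and was not tested. With 1 library of 4 weeks left out, the number that rose was 2 when replicate 1 of GelMA or replicate 2 or 3 of MFN+GelMA was left out, and the number that fell was 1 when replicate 1 of GelMA or replicate 1 of MFN+GelMA was left out.

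Genes of lipid-associated macrophages, the lipid-loaded state known from fat and atheroma, were the group with the largest median of the lists. Of 17 tested genes 11 rose and 1 fell, with a median of 1.64. The tetraspanin gene Cd9 stood at 189, 123 and 244 FPKM in GelMA and 762, 689 and 716 FPKM in MFN+GelMA and changed by 2.01 (SE 0.22, adjusted p = 0.000136). Plin2, the coat protein of lipid droplets, stood at 45.1, 50.4 and 54.5 FPKM in GelMA and 235, 158 and 235 FPKM in MFN+GelMA and changed by 2.03 (SE 0.24, adjusted p = 0.000179). Lipa, the lysosomal acid lipase, and Fabp5, a fatty acid carrier, changed by 2.10 and 1.57. Apoe, which encodes the lipid carrier apolipoprotein E, went against its list. It stood at 12028, 12842 and 13125 FPKM in GelMA and 5695, 6232 and 5982 FPKM in MFN+GelMA and changed by -1.09 (SE 0.24, adjusted p = 0.00718).

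Genes of resident-like and alternatively activated macrophages leaned the other way. Of 14 tested genes 5 fell and 1 rose, with a median of -0.66. Klf4, a zinc finger factor also expressed in vessels and fibroblasts, stood at 109.6, 122 and 80.6 FPKM in GelMA and 26.2, 33.1 and 38 FPKM in MFN+GelMA and changed by -1.65 (SE 0.16, adjusted p = 7.71e-05). Cd163, the scavenger receptor of haemoglobin, stood at 29.7, 40.6 and 26.8 FPKM in GelMA and 8.36, 9.79 and 12.4 FPKM in MFN+GelMA and changed by -1.57 (SE 0.29, adjusted p = 0.00251). F13a1, the coagulation factor XIII subunit of resident macrophages, changed by -1.36. The mannose receptor gene Mrc1, a common marker of the state, stood at 83.8, 90 and 95.5 FPKM in GelMA and 90.1, 63.7 and 82.5 FPKM in MFN+GelMA and did not pass (adjusted p = 0.393). The number that fell was 3 when replicate 1 of MFN+GelMA was left out, and the number that rose was 0 when replicate 1 of GelMA or replicate 3 of MFN+GelMA was left out.

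Cytokine and costimulation genes rose in part. Of 11 tested genes of this list 5 rose and 0 fell. Cd86, a ligand of CD28 on T cells, stood at 6.36, 7.18 and 5.85 FPKM in GelMA and 24.8, 18.5 and 19.3 FPKM in MFN+GelMA. Cd80, the other such ligand, stood at 0.59, 2.41 and 1.5 FPKM in GelMA and 6.76, 7.81 and 6.12 FPKM in MFN+GelMA. The groups did not overlap in either gene, with log2 fold changes of 1.54 and 1.72, and Cd40 changed by 0.90. Tnf stayed under 1 FPKM in all 6 libraries and was not tested. The chemokine ligand list gave shares near the background, with 3 of 23 tested genes higher, 1 lower (0 when replicate 1 of GelMA or replicate 1 of MFN+GelMA was left out) and a median of -0.31. Within it Ccl9, a ligand of CCR1, stood at 106, 87.2 and 183 FPKM in GelMA and 686, 666 and 740.2 FPKM in MFN+GelMA and changed by 2.54 (SE 0.23, adjusted p = 5.1e-05). Cxcl16, which overlaps another row of the table, changed by 1.72 and Ccl3 by 1.47. The eosinophil attractant gene Ccl24 changed by -1.22 on the log2 scale, and its adjusted p was 0.0763 without MFN+GelMA 4W replicate 1.

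Genes of antigen presentation rose in part. Of 17 tested MHC genes 6 rose and 0 fell, with a median of 0.14, and the number that fell was 1 when replicate 3 of GelMA was left out. The 4 with the smallest p were class II genes or their partner. Cd74, the invariant chain, stood at 747, 641 and 904 FPKM in GelMA and 1587, 1289.5 and 2096 FPKM in MFN+GelMA and changed by 1.10 (SE 0.19, adjusted p = 0.00147), and the class II genes RT1-Da, RT1-Db1 and RT1-Bb changed by 1.32, 1.04 and 1.08. RT1 genes are a multigene family, so the split of reads between them is uncertain. Of 13 tested T cell markers 1 rose, the costimulator gene Icos (1.0), which missed without MFN+GelMA 4W replicate 2 (adjusted p = 0.0543).

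Complement genes moved both ways, 4 higher and 7 lower of 21 tested. C3ar1, the receptor of the C3a fragment, stood at 15.5, 14.9 and 20.7 FPKM in GelMA and 50.3, 43.7 and 53.3 FPKM in MFN+GelMA and changed by 1.48 (SE 0.16, adjusted p = 0.00011). The component gene C4b stood at 669, 821 and 528 FPKM in GelMA and 115, 159 and 166 FPKM in MFN+GelMA. Its copy C4a stood at 173, 205 and 136 FPKM in GelMA and 50, 59.4 and 62.7 FPKM in MFN+GelMA. Their log2 fold changes were -2.18 and -1.55, and both share a locus with 13 other rows and are close copies of each other, so the split between them is uncertain. Of integrin subunits 8 of 18 rose and 1 fell (0 when replicate 1 of MFN+GelMA was left out). The leukocyte integrin genes led, with Itgax (CD11c) at 20.5, 14.2 and 39.9 FPKM in GelMA and 184, 179.9 and 180.2 FPKM in MFN+GelMA. Its log2 fold change was 2.94 (SE 0.31, adjusted p = 0.000112), and Itgad, Itgb2 and Itga4 changed by 2.44, 2.14 and 1.82. Itgax and Itgad each overlap another row of the table.

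Subunits of the proton pump of lysosomes rose. The vacuolar ATPase pumps protons into lysosomes and, in osteoclasts, out towards bone. All 17 listed subunits were tested, 14 rose (13 without GelMA replicate 2) and 0 fell, with a median of 0.91. Subunit gene Atp6v1h stood at 30.3, 27.5 and 35.2 FPKM in GelMA and 83.2, 67.1 and 69.8 FPKM in MFN+GelMA and changed by 1.22 (SE 0.14, adjusted p = 0.000158). Atp6v1d, Atp6v1e1 and the pore subunit gene Atp6v0c changed by 1.07, 1.16 and 1.13. Lysosomal hydrolases and membrane proteins were more mixed, with 11 higher and 3 lower of 30. The alpha-galactosidase gene Gla stood at 10.1, 8.52 and 16.2 FPKM in GelMA and 43.9, 36.8 and 38.6 FPKM in MFN+GelMA and changed by 1.74 (SE 0.18, adjusted p = 0.000113), while the cathepsin genes Ctss and Ctsz changed by 1.02 and 1.20. Ctsh, a cathepsin also known from other cells, went against the list at 827, 624 and 639 FPKM in GelMA and 345, 314 and 389 FPKM in MFN+GelMA, with a log2 fold change of -0.99 (SE 0.14, adjusted p = 0.000441). Lamp1 (-0.99) and Man2b1 (-0.40) also fell.

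**Figure D3:**
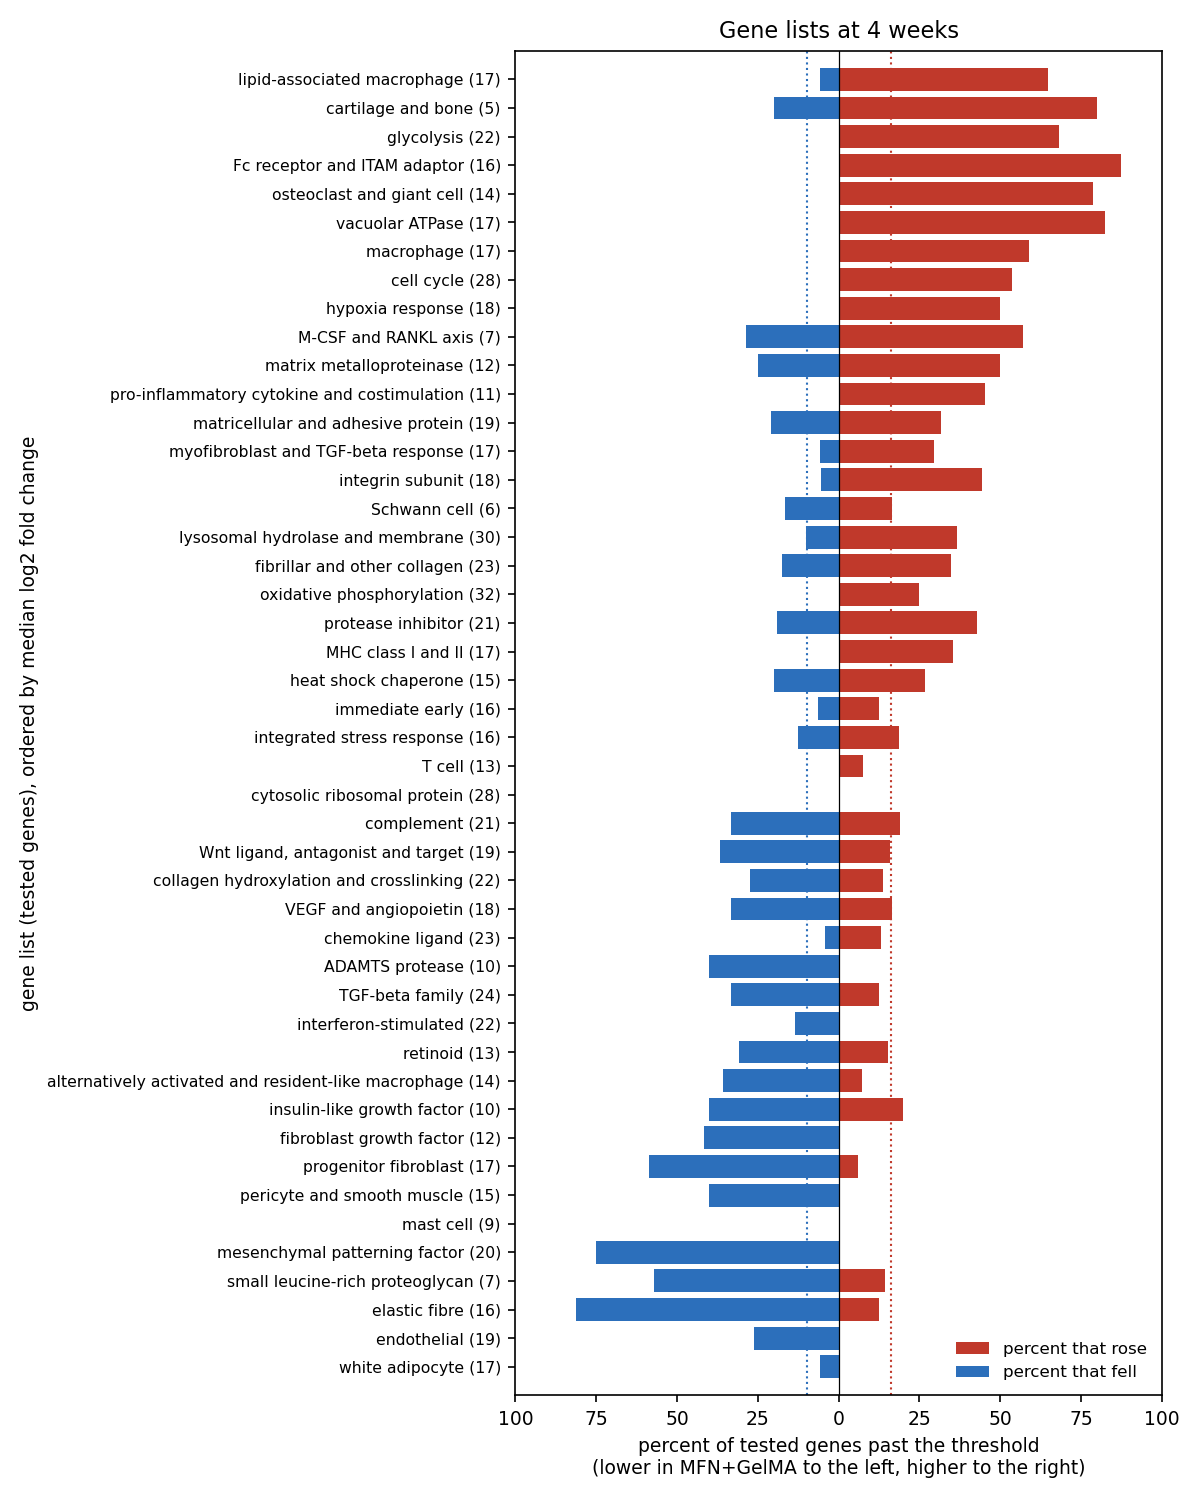
For each gene list with at least 5 tested genes (number in brackets), the percent of tested genes that rose (red, to the right) and that fell (blue, to the left), ordered by the median log2 fold change. Dotted lines mark the shares over all tested genes, 16.1% higher and 9.75% lower, and lipid-associated macrophage, glycolysis, ITAM, osteoclast and vacuolar ATPase genes stand near the top while adipocyte, endothelial and elastic fibre genes stand at the bottom.

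Glycolysis, the breakdown of glucose to lactate, rose through most of its steps. Of 23 listed genes 22 were tested, 15 rose (16 without GelMA replicate 2) and 0 fell, with a median of 1.12. The enolase gene Eno1 stood at 137, 152 and 179.8 FPKM in GelMA and 454, 558 and 475 FPKM in MFN+GelMA and changed by 1.66 (SE 0.16, adjusted p = 7.02e-05). Pgk1, phosphoglycerate kinase, stood at 96.1, 93.2 and 107 FPKM in GelMA and 231, 305 and 230.1 FPKM in MFN+GelMA and changed by 1.35 (SE 0.15, adjusted p = 0.00014), and the mutase gene Pgam1 by 1.18. No glycolysis gene named here overlapped between the groups, but these genes were picked for their p or after their values were seen. Over the 22 tested genes, 16 had every MFN+GelMA library above every GelMA library, where 27.7% of all tested genes did. The reverse held for 1 gene, beside 18.6% of all tested genes. Ldha, which makes lactate and was picked after its values and promoter were seen, stood at 149, 188 and 156 FPKM in GelMA and 371, 451 and 348 FPKM in MFN+GelMA and changed by 1.24 (SE 0.17, adjusted p = 0.000475).

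Targets of hypoxia-inducible factors, which switch on glycolysis at low oxygen, were listed together with the factor genes Hif1a and Epas1 and rose in part. Of 18 tested genes 9 rose (11 without GelMA replicate 2) and 0 fell (1 when replicate 3 of GelMA was left out), with a median of 0.58. The carbonic anhydrase gene Car9 stood at 0.0672, 0.258 and 0.615 FPKM in GelMA and 3.82, 7.48 and 2.64 FPKM in MFN+GelMA and changed by 2.03 (SE 0.30, adjusted p = 0.000598). Car12 was listed at 0 in GelMA replicates 2 and 3 and stood at 2.74, 3.03 and 1.48 FPKM in MFN+GelMA. Car9 and Car12, 2 of the 9 that rose, passed the filter only through MFN+GelMA, so their differences were built in. P4ha1, a prolyl hydroxylase of collagen, stood at 65.7, 64.8 and 70 FPKM in GelMA and 143, 144 and 124 FPKM in MFN+GelMA and changed by 1.02 (SE 0.16, adjusted p = 0.000858), and the oxidase gene Ero1a changed by 1.47. The factor genes themselves did not pass. Hif1a stood at 37, 34.9 and 35.9 FPKM in GelMA and 41, 37.6 and 36.7 FPKM in MFN+GelMA (adjusted p = 0.78). Epas1 stood at 77.7, 111 and 63.7 FPKM in GelMA and 35.9, 45.7 and 48 FPKM in MFN+GelMA (adjusted p = 0.121). The angiogenic target Vegfa stood at 43.5, 60.9 and 32.1 FPKM in GelMA and 25.8, 36 and 27.9 FPKM in MFN+GelMA and did not pass either (adjusted p = 0.128).

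Promoter sequences were searched for the core of the hypoxia response element, ACGTG, on both strands, from 250 bases before to 50 after each gene's start in RefSeq's GRCr8 rat assembly. The motif was present in 25.8% of the 8774 tested genes with a promoter sequence. It was present in 11 of 21 glycolysis genes (52.4%) and in 10 of 15 hypoxia response genes (66.7%). Lists not built around hypoxia also held it often. It was present in 6 of 13 vacuolar ATPase genes (46.2%), 10 of 24 lysosomal genes (41.7%) and 4 of 8 matrix metalloproteinase genes. Only the osteoclast and giant cell list, with 2 of 8 genes, was near the share of all tested genes. A raised share was thus not particular to the glycolysis and hypoxia response lists. Among the members that rose the counts were 6 of 14 glycolysis genes (42.9%) and 5 of 7 hypoxia response genes (71.4%), so the motif was no more frequent among glycolysis genes that rose than in their whole list. Across all genes called higher the share was 23.7%, and 21.6% across those called lower. Stretches of 60 bases, written 5′ to 3′ on the strand of the gene with the motif in capitals, are shown for genes that rose and carry it before their start, with CACGT marking the motif on the other strand. A match is a description of letters and not of a bound site.
Ldha (chr1:106507991-106508050, plus strand): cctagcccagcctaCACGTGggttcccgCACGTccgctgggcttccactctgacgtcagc
Pgam1 (chr1:250672983-250673042, plus strand): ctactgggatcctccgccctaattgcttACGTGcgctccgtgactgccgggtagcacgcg
Slc2a1 (chr5:138002443-138002502, plus strand): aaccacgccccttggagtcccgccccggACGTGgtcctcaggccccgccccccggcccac
Hilpda (chr4:58836388-58836447, plus strand): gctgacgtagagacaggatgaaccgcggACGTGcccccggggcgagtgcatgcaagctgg

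The Ldha stretch holds the longer palindrome CACGTG, which contains ACGTG and occurs in 9.49% of the promoters of tested genes. The glucose transporter gene Slc2a1 stood at 13.7, 9.73 and 21.3 FPKM in GelMA and 69, 89.1 and 74.7 FPKM in MFN+GelMA, with a log2 fold change of 2.36 (SE 0.42, adjusted p = 0.00178). Hilpda, a lipid droplet protein induced by hypoxia, stood at 7.17, 11.7 and 14.1 FPKM in GelMA and 23.3, 32.1 and 42.7 FPKM in MFN+GelMA, with a log2 fold change of 1.5 (SE 0.35, adjusted p = 0.009). Both genes were picked after their values and promoters were seen, and the groups did not overlap in either. The promoters of Slc16a3, Eno1 and Hk2 hold no copy of ACGTG in this window. Fewer respiratory chain genes passed the test. Of 32 tested genes 8 rose and 0 fell, with a median of 0.22. The succinate dehydrogenase gene Sdhb stood at 77.3, 104 and 87 FPKM in GelMA and 139.6, 143 and 135 FPKM in MFN+GelMA and changed by 0.64 (SE 0.11, adjusted p = 0.00126). The number that rose depended on single libraries and was 5 when replicate 1 or 3 of GelMA or replicate 2 or 3 of MFN+GelMA was left out and 15 when replicate 2 of GelMA was left out.

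Genes of dividing cells rose from a low level. Of 30 listed cell cycle genes 28 were tested, 15 rose (13 without GelMA replicate 2) and 0 fell, with a median of 0.70. Bub1b, 1 of the 15, passed the filter only through MFN+GelMA, so its difference was built in. Mki67, the proliferation antigen, stood at 3.87, 4.43 and 5.29 FPKM in GelMA and 7.85, 12.1 and 9.04 FPKM in MFN+GelMA and changed by 0.93 (SE 0.17, adjusted p = 0.00207). Nusap1 and Tpx2, which organise the spindle, changed by 1.08 and 0.80. Kif20a, a kinesin of cell division, changed by 0.86 and overlaps another row of the table. Which cells were dividing was not measured.

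Collagen genes moved both ways. Of 23 tested collagen genes 8 rose and 4 fell, with a median of 0.28. Col24a1, 1 of the 8, passed the filter only through MFN+GelMA, so its difference was built in. Col1a1 and Col3a1, with their listed zeros, gave no call. Besides Col11a1, Col17a1, a transmembrane collagen, stood at 0.989, 0.549 and 1.86 FPKM in GelMA and 5.25, 5.08 and 5.88 FPKM in MFN+GelMA and changed by 1.63 (SE 0.23, adjusted p = 0.000518). Col6a6, a chain of the beaded filaments of soft tissue, stood at 18.1, 18 and 18.3 FPKM in GelMA and 1.8, 3.32 and 2.15 FPKM in MFN+GelMA and changed by -2.51 (SE 0.22, adjusted p = 5.02e-05). Col4a5, a basement membrane chain, stood at 9.42, 8.4 and 7.74 FPKM in GelMA and 1.75, 1.95 and 1.21 FPKM in MFN+GelMA and changed by -1.86 (SE 0.21, adjusted p = 0.000158). The number of collagens that rose was 5 when replicate 1 of GelMA was left out. Among 22 genes that modify and trim collagen 3 rose and 6 fell. Plod2 and P4ha1 rose, while Pcolce, an enhancer of procollagen cleavage, stood at 570.1, 439 and 464 FPKM in GelMA and 197, 271 and 227 FPKM in MFN+GelMA and changed by -1.08 (SE 0.14, adjusted p = 0.000322). The procollagen peptidase gene Adamts2 changed by -0.98. The number that fell was 3 when replicate 1 of GelMA was left out.

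Elastic fibre genes fell in most tested members. Of 19 listed genes 16 were tested, 13 fell (11 without GelMA replicate 2) and 2 rose, with a median of -1.18. Ltbp1, which binds latent TGF-beta to microfibrils, stood at 55.2, 40.4 and 38.4 FPKM in GelMA and 6.99, 9.06 and 7.9 FPKM in MFN+GelMA and changed by -2.33 (SE 0.15, adjusted p = 1.34e-05). Efemp1, fibulin 3, stood at 117, 136 and 110.2 FPKM in GelMA and 26.4, 29 and 30.7 FPKM in MFN+GelMA and changed by -2.04 (SE 0.16, adjusted p = 3.4e-05). Fbln5, the fibulin that joins elastin to cells, stood at 24.3, 21.7 and 19.5 FPKM in GelMA and 8.57, 8.93 and 7.46 FPKM in MFN+GelMA and changed by -1.29 (SE 0.13, adjusted p = 7.71e-05). No library of one group reached into the other for these genes. The number that rose was 1 when replicate 2 of GelMA or replicate 3 of MFN+GelMA was left out. Emilin1 and Ltbp2 went against the list, with log2 fold changes of 1.32 and 1.08, and Ltbp2 missed without GelMA replicate 2 (adjusted p = 0.0579).

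Of 7 tested small leucine-rich proteoglycan genes, whose proteins space collagen fibrils, 4 fell and 1 rose. Dcn, decorin, stood at 4877, 3041 and 3856 FPKM in GelMA and 1466, 1383 and 1503 FPKM in MFN+GelMA and changed by -1.41 (SE 0.18, adjusted p = 0.000297). Prelp stood at 266, 194 and 231 FPKM in GelMA and 72.4, 82.9 and 88.7 FPKM in MFN+GelMA and changed by -1.48 (SE 0.14, adjusted p = 7.43e-05). Lum, lumican, rose instead at 1078, 639 and 1221 FPKM in GelMA and 1905, 1412 and 1431 FPKM in MFN+GelMA, but its call (adjusted p = 0.0346) was lost without GelMA replicate 2 and without any 1 of the MFN+GelMA libraries. Matricellular genes moved both ways, 6 higher and 4 lower of 19. Comp, 1 of the 6, passed the filter only through MFN+GelMA, so its difference was built in. Sparc, an abundant product of fibroblasts, stood at 7824, 5601 and 6311 FPKM in GelMA and 3264, 4239.6 and 3538 FPKM in MFN+GelMA. Postn, periostin, stood at 1777, 1216 and 1403 FPKM in GelMA and 973, 795 and 787 FPKM in MFN+GelMA. Every MFN+GelMA library was under every GelMA library in both. Their log2 fold changes were -0.83 and -0.77, and Thbs3 changed by -1.96. The number of matricellular genes that rose was 3 when replicate 2 of GelMA or replicate 1 of MFN+GelMA was left out.

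Matrix metalloproteinase genes split within one chromosomal cluster. Of 19 listed genes 12 were tested, 6 rose and 3 fell. Mmp12, Mmp3, Mmp13 and Mmp10 lie in a cluster on rn6 chromosome 8 and rose, while Mmp27 (ENSRNOG00000040208, rn6 chromosome 8, 5790033 to 5800342) in the same cluster fell. Mmp27 stood at 67, 39.6 and 39.6 FPKM in GelMA and 3.04, 6.73 and 3.17 FPKM in MFN+GelMA, with a log2 fold change of -3.25 (SE 0.28, adjusted p = 5.02e-05). The stromelysin gene Mmp3 stood at 7.49, 2.82 and 10.9 FPKM in GelMA and 24.5, 35 and 30.6 FPKM in MFN+GelMA. The collagenase gene Mmp13 stood at 0.703, 0.2 and 2.19 FPKM in GelMA and 6.92, 12.7 and 5.86 FPKM in MFN+GelMA. Their log2 fold changes were 2.08 and 2.28, and Mmp10 changed by 1.06. These 3 genes, named here for their place in the cluster after their values were seen, missed without GelMA replicate 2 (adjusted p = 0.0583, 0.0591 and 0.147), so that the number that rose was 3 when replicate 2 of GelMA or replicate 2 of MFN+GelMA was left out. Mmp19 stood at 44.8, 37.3 and 51.6 FPKM in GelMA and 90.3, 86.5 and 101 FPKM in MFN+GelMA and changed by 1.05 (SE 0.12, adjusted p = 0.000149).

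The same RefSeq GRCr8 promoters were searched for TGANTCA, the letters bound by AP-1 factors, which read the same on both strands. The motif was present in 5.04% of the promoters of tested genes. It was present in 5 of the 8 tested metalloproteinase genes with a promoter sequence (62.5%), which were Mmp3, Mmp10, Mmp12, Mmp13 and Mmp7. All 4 of the risen genes with a promoter sequence carried it, and the promoters of Mmp27, Mmp23 and Mmp15 did not. Mmp7 carried it and stood at 20.3, 6.01 and 25.7 FPKM in GelMA and 23.7, 9.98 and 12.9 FPKM in MFN+GelMA, with no call (adjusted p = 0.976). The stretches of 60 bases around the motif show its letters in capitals, 61 to 87 bases before the annotated start.
Mmp3 (chr8:12925183-12925242, plus strand): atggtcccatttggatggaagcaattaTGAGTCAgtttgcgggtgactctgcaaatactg
Mmp10 (chr8:12974619-12974678, plus strand): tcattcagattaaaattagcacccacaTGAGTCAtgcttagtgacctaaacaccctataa
Mmp12 (chr8:12866538-12866597, plus strand): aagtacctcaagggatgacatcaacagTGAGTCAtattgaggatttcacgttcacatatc
Mmp13 (chr8:12782736-12782795, plus strand): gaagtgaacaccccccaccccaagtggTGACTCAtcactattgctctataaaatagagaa
Mmp7 (chr8:13132936-13132995, plus strand): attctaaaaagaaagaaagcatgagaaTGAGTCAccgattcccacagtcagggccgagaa

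These genes neighbour each other as copies of an ancestral gene, so the shared letters are not independent observations. Of the tested genes of the cluster, Mmp12 had the largest positive and Mmp27 the largest negative fold change. Of 10 tested Adamts proteases 4 fell and 0 rose. Adamts12 and the aggrecanase gene Adamts5 changed by -0.84 and -0.84. Protease inhibitor genes split, 9 higher and 4 lower of 21, with the built-in difference of A2m, 1 of the 9, included. Cst7, cystatin F of leukocytes, stood at 20.9, 24.6 and 30.4 FPKM in GelMA and 75.9, 75.6 and 77.7 FPKM in MFN+GelMA and changed by 1.57 (SE 0.16, adjusted p = 7.71e-05), while Serpinf1, a fibroblast serpin, stood at 970.3, 594 and 722 FPKM in GelMA and 333, 372 and 363 FPKM in MFN+GelMA and changed by -1.07 (SE 0.15, adjusted p = 0.000519).

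Markers of progenitor fibroblasts fell. Of 17 tested genes 10 fell (9 without GelMA replicate 2) and 1 rose, with a median of -0.91. The number that rose was 0 when replicate 1 of GelMA or replicate 2 or 3 of MFN+GelMA was left out. Cd34, a surface marker of these fibroblasts and of endothelium, stood at 389.7, 289 and 312 FPKM in GelMA and 51.9, 95.4 and 63.6 FPKM in MFN+GelMA and changed by -2.25 (SE 0.22, adjusted p = 7.71e-05). Ackr3, a scavenging chemokine receptor, stood at 157, 109 and 119 FPKM in GelMA and 31.4, 29.7 and 34.9 FPKM in MFN+GelMA and changed by -1.96 (SE 0.15, adjusted p = 3.14e-05). Efhd1 stood at 11.5, 10.2 and 8.35 FPKM in GelMA and 1.52, 1.94 and 2.14 FPKM in MFN+GelMA and changed by -1.94 (SE 0.19, adjusted p = 7.71e-05). All 3 MFN+GelMA libraries lay under all GelMA libraries in each. Genes of myofibroblasts, the contractile cells of scars, gave 5 higher and 1 lower of 17. The number that rose was 2 when replicate 2 of GelMA was left out. Cdh11, a cadherin of activated fibroblasts, changed by 0.98 (SE 0.17, adjusted p = 0.00143), and Skil, a feedback inhibitor of TGF-beta signals, by 1.11 (SE 0.24, adjusted p = 0.00635). The defining actin gene Acta2 stood at 91.1, 84.5 and 77.7 FPKM in GelMA and 34.5, 72.3 and 43.9 FPKM in MFN+GelMA and did not pass (adjusted p = 0.124).

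Developmental transcription factors of connective tissue fell with no member higher. Of 30 listed patterning genes 20 were tested and 15 fell (13 without GelMA replicate 2), with a median of -1.04. Irx3, 1 of the 15, passed the filter only through GelMA, so its difference was built in. Osr2 stood at 20.5, 11.3 and 13.3 FPKM in GelMA and 1.95, 3.27 and 3.72 FPKM in MFN+GelMA and changed by -2.0 (SE 0.23, adjusted p = 0.000177), and Osr1 changed by -1.23. Of the tested members 5 did not pass.

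Growth factor families were lower in part. Of 24 tested TGF-beta family genes 8 fell and 3 rose. Fstl3, 1 of the 3, passed the filter only through MFN+GelMA, so its difference was built in. The ligand gene Bmp7 was listed at 0 in MFN+GelMA replicates 2 and 3 and stood at 6.04, 2.67 and 2.81 FPKM in GelMA, through which alone it passed the filter. Tgfb2 stood at 51.3, 35.8 and 31.4 FPKM in GelMA and 9.41, 15.4 and 9.58 FPKM in MFN+GelMA and changed by -1.70 (SE 0.22, adjusted p = 0.000296). The receptor gene Tgfbr1 went the other way at 14.5, 10.3 and 26.3 FPKM in GelMA and 70, 83.8 and 65.6 FPKM in MFN+GelMA. It changed by 2.13 (SE 0.25, adjusted p = 0.000178), and the coreceptor gene Tgfbr3 by -1.19. Of 12 tested fibroblast growth factor genes 5 fell and 0 rose. The number that fell was 8 when replicate 3 of GelMA was left out. Fgf10, a growth factor of mesenchyme, stood at 4.91, 13 and 2.89 FPKM in GelMA and 0.567, 0.423 and 0.459 FPKM in MFN+GelMA. It changed by -2.21 (SE 0.44, adjusted p = 0.0036), beside Fgf13 (-1.45) and Fgf16 (-1.77). These genes and Fgf18, 4 of the 5 that fell, passed the filter only through GelMA, so their differences and most of that count were built in.

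Wnt pathway genes moved both ways, 3 higher and 7 lower of 19. Of these 2 higher and 2 lower genes passed the filter through 1 group alone. A pair of secreted antagonists of one family moved in opposite directions. Sfrp2 stood at 165, 165 and 168 FPKM in GelMA and 38.9, 34.4 and 40.2 FPKM in MFN+GelMA and changed by -2.11 (SE 0.13, adjusted p = 1.34e-05), while Sfrp5 stood at 3.93, 2.35 and 6.3 FPKM in GelMA and 65.3, 53 and 60.7 FPKM in MFN+GelMA. In FPKM, Sfrp2 was above Sfrp5 in each GelMA library and under it in each MFN+GelMA library. The ligand gene Wnt2 stood at 14.8, 6.25 and 9.44 FPKM in GelMA and 0.596, 1.06 and 1.37 FPKM in MFN+GelMA and changed by -2.42 (SE 0.35, adjusted p = 0.000519). Of 10 insulin-like growth factor genes 4 fell and 2 rose, with Igfbp6 at -1.72 and Igf2bp2, an RNA-binding protein that passed the filter only through MFN+GelMA, at 1.76. Of 13 retinoid genes 4 fell and 2 rose. Aldh1a3, which makes retinoic acid, stood at 13.8, 7.68 and 8.05 FPKM in GelMA and 1.16, 1.03 and 0.916 FPKM in MFN+GelMA and changed by -2.37 (SE 0.21, adjusted p = 5.02e-05). The number of retinoid genes that rose was 1 when replicate 1 or 2 or 3 of GelMA or replicate 1 or 3 of MFN+GelMA was left out.

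Genes of cartilage and bone were rare. Of 18 listed genes 5 reached the filter, 4 rose and 1 fell, but 3 of the 4 passed the filter only through MFN+GelMA. Runx2, the osteoblast transcription factor, stood at 5.04, 4.18 and 8.39 FPKM in GelMA and 20.4, 22.2 and 17.5 FPKM in MFN+GelMA and changed by 1.65 (SE 0.21, adjusted p = 0.000273). Acan, aggrecan, stood at 0.0101, 0.0111 and 0.163 FPKM in GelMA and 1.39, 3.46 and 1.34 FPKM in MFN+GelMA. Alpl, the tissue phosphatase, stood at 0.192, 0.21 and 0.551 FPKM in GelMA and 2.31, 3.8 and 2.25 FPKM in MFN+GelMA. Both passed the filter only through MFN+GelMA, as did Comp, so their calls (1.46 and 1.51) were built in. Sost, the Wnt antagonist sclerostin, stood at 7.53, 25.6 and 8.12 FPKM in GelMA and 2.28, 1.79 and 2.05 FPKM in MFN+GelMA and changed by -2.07 (SE 0.41, adjusted p = 0.00326).

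Vessel genes were lower in most members and passed the test in few. Of 19 tested endothelial genes 5 fell, 0 rose and 16 had every MFN+GelMA library under every GelMA library, where 18.6% of all tested genes did. The median was -1.18. Kdr, the main receptor of vascular endothelial growth factor, stood at 16, 17.8 and 11.7 FPKM in GelMA and 4.79, 6.1 and 5.65 FPKM in MFN+GelMA and changed by -1.30 (SE 0.35, adjusted p = 0.0187). Emcn, endomucin, stood at 81.4, 70.8 and 56.8 FPKM in GelMA and 13, 23.9 and 22.6 FPKM in MFN+GelMA and changed by -1.79 (SE 0.50, adjusted p = 0.0219). Tek, the angiopoietin receptor, and Nos3, whose locus overlaps another row, changed by -1.20 and -1.17. The number that fell was 1 when replicate 1 of GelMA or replicate 1 of MFN+GelMA was left out, 2 when replicate 2 of GelMA was left out and 3 when replicate 2 of MFN+GelMA was left out. The summed level of the list was 428 to 599 FPKM in GelMA and 199 to 283 FPKM in MFN+GelMA.

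Genes of pericytes, which wrap capillaries, were lower in part. Of 15 tested pericyte and smooth muscle genes 6 fell and 0 rose (1 when replicate 2 of GelMA was left out). Abcc9, a subunit of their potassium channel, stood at 27.8, 28.1 and 19.6 FPKM in GelMA and 5.37, 7.51 and 6.14 FPKM in MFN+GelMA. Kcnj8, the pore subunit, stood at 22.2, 19.9 and 16.9 FPKM in GelMA and 4.46, 5.95 and 7.08 FPKM in MFN+GelMA. Abcc9 changed by -1.83 (SE 0.26, adjusted p = 0.000457) on the log2 scale and Kcnj8 by -1.61 (SE 0.24, adjusted p = 0.000672). Both were called in all 6 fits that left out a library of 4 weeks. The number that fell over the list was 2 when replicate 2 of GelMA or replicate 1 of MFN+GelMA was left out and 3 when replicate 2 or 3 of MFN+GelMA was left out. The alpha globin gene Hba-a2, from red cells in the vessels, stood at 219.5, 365 and 169 FPKM in GelMA and 39, 77.4 and 58.9 FPKM in MFN+GelMA and changed by -2.06 on the log2 scale, and its adjusted p was 0.085 without GelMA replicate 2. Globin genes are close copies, so their split is uncertain. Of 18 genes of the VEGF and angiopoietin systems 6 fell and 3 rose. Angpt4 stood at 20.8, 41.7 and 14.6 FPKM in GelMA and 4.12, 5.01 and 4.87 FPKM in MFN+GelMA and changed by -2.11 (SE 0.29, adjusted p = 0.000422), Angptl1, which overlaps another row, changed by -1.99, and the coreceptor genes Nrp1 and Nrp2, also found on macrophages, changed by 0.79 and 0.85.

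Adipocyte genes had the lowest median of the lists and almost no calls. Of 17 tested genes 1 fell and 0 rose with all libraries, at a median of -2.49. The median was -1.07 without GelMA replicate 2, the number that fell was 2 when replicate 2 of GelMA was left out and 11 when replicate 3 of GelMA was left out, and the number that rose was 1 when replicate 2 of GelMA was left out. In 12 of the 17 genes every MFN+GelMA library was under every GelMA library, where 18.6% of all tested genes were. Cfd stood at 239.7, 1776 and 177 FPKM in GelMA and 65, 73.4 and 87.2 FPKM in MFN+GelMA and changed by -2.49 (SE 0.63, adjusted p = 0.0137), and its locus is shared with 16 other rows. Fabp4, a fatty acid carrier of adipocytes and macrophages, stood at 2248, 8336 and 2153 FPKM in GelMA and 5830.3, 4786 and 5922 FPKM in MFN+GelMA and did not pass (adjusted p = 0.463). Without GelMA replicate 2 both remaining GelMA libraries lay under all MFN+GelMA libraries for Fabp4 and above all of them for Adipoq. Of red blood cell genes 2 of 3 fell, and the number was 0 when replicate 1 or 2 of GelMA or replicate 1 or 3 of MFN+GelMA was left out. Of 6 Schwann cell genes 1 rose (0 when replicate 3 of MFN+GelMA was left out) and 1 fell (0 when replicate 1 of MFN+GelMA was left out), while B cells (2 genes tested) and neutrophils (3 tested) gave 0 calls. Mast cell genes gave no call (9 tested, 6 with MFN+GelMA under GelMA in every library beside 18.6% of all tested genes, median -1.03). The mast cell protease gene Cma1 stood at 39, 50 and 39.4 FPKM in GelMA and 3.76, 15.4 and 10.8 FPKM in MFN+GelMA (adjusted p = 0.0791).

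**Figure D4:**
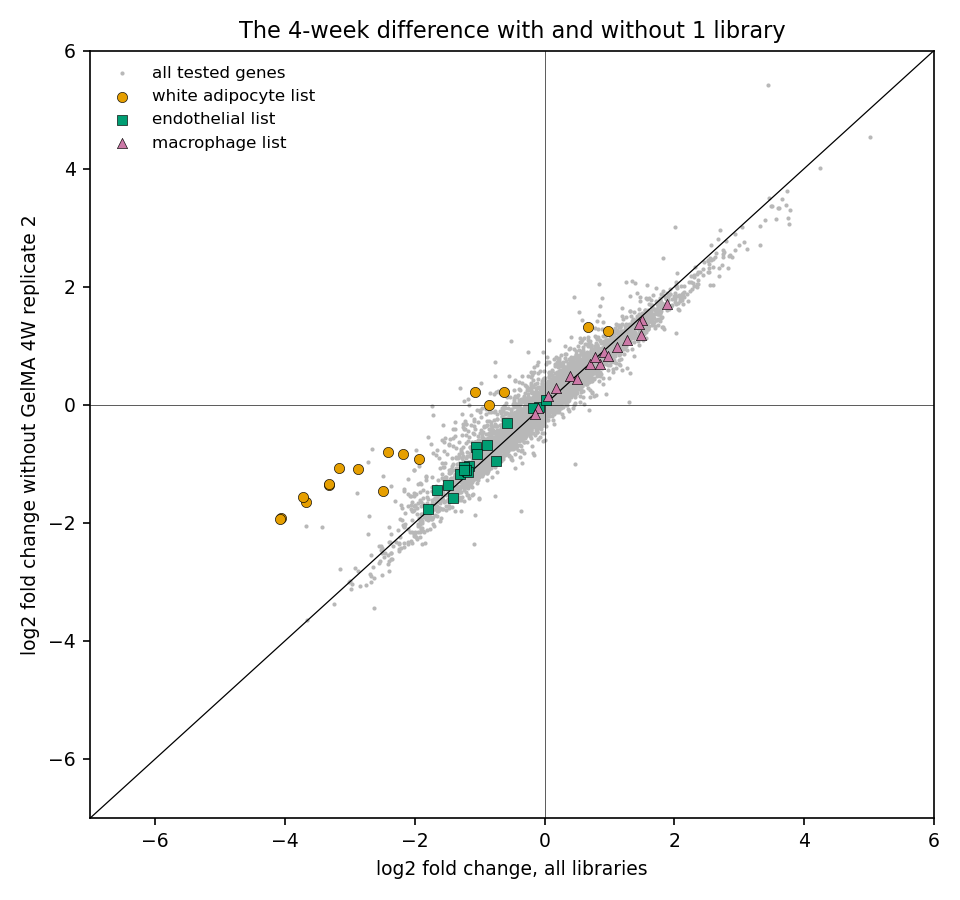
Log2 fold change of each tested gene with all libraries (horizontal axis) and without GelMA 4W replicate 2 (vertical axis), with the line of equality (Col3a1 lies beyond the axes). Macrophage genes (triangles) lie near the line, endothelial genes (squares) lie close to it, and most adipocyte genes (circles) lie well above it, with medians of -2.49 and -1.07.

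Stress and interferon genes gave few calls. Of 22 tested interferon-stimulated genes 3 fell and 0 rose. Oas1a, an antiviral sensor, stood at 9.83, 22.3 and 8.78 FPKM in GelMA and 5.48, 4.43 and 4.91 FPKM in MFN+GelMA, highest in GelMA replicate 2, and changed by -1.19 (SE 0.34, adjusted p = 0.0222). The number that fell was 0 when replicate 2 of GelMA or replicate 2 of MFN+GelMA was left out and 1 when replicate 1 or 3 of MFN+GelMA was left out. Of 16 immediate early genes 2 rose and 1 fell. Egr2, a zinc finger factor, stood at 4.9, 7.64 and 8.76 FPKM in GelMA and 30.2, 31.6 and 31.7 FPKM in MFN+GelMA and changed by 2.02 (SE 0.18, adjusted p = 5.02e-05). Atf3, a stress-induced factor, stood at 41.9, 44.3 and 77.5 FPKM in GelMA and 212, 179 and 206 FPKM in MFN+GelMA and changed by 1.9 (SE 0.19, adjusted p = 7.71e-05). The 1 that fell was Jun, whose call (-0.69) was lost when replicate 2 of GelMA or replicate 1 or 2 of MFN+GelMA was left out. Heat shock genes split, 4 higher and 3 lower of 15, and the number that rose was 2 when replicate 1 or 3 of GelMA or replicate 1 or 3 of MFN+GelMA was left out. Hspb7, a small heat shock protein known from muscle, stood at 1.74, 2.89 and 5.35 FPKM in GelMA and 25.5, 35.7 and 38.6 FPKM in MFN+GelMA and changed by 3.05 (SE 0.35, adjusted p = 0.000156), while its relative Hspb8 stood at 60.2, 37.6 and 46.4 FPKM in GelMA and 11.5, 15 and 13.3 FPKM in MFN+GelMA and changed by -1.77 (SE 0.16, adjusted p = 5.02e-05). In the integrated stress response 3 of 16 rose and 2 fell, with the cystine carrier gene Slc7a11 at 1.91 and the factor gene Atf5 at -1.92, while the number that fell was 1 when replicate 2 of GelMA or replicate 2 or 3 of MFN+GelMA was left out. Of 28 cytosolic ribosomal protein genes 0 passed in either direction, with a median of -0.13, and 1 fell without GelMA replicate 3.

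The same material contrast at 2 weeks called 54 genes over the same 11735 (0.46%), and 44 of these were also called at 4 weeks, 41 in the same direction. Replicate 2 of MFN+GelMA 2W carried skeletal muscle markers. Acta1 stood at 0.615, 0.185 and 0.123 FPKM in GelMA 2W and 0.0627, 275 and 0.55 FPKM in MFN+GelMA 2W, and the muscle fibre list summed to 1336 FPKM in that library and to 20.8 to 31.1 FPKM in the other libraries of 2 weeks. Without that library the 2-week contrast called 151 genes, 94 of them also called at 4 weeks and 84 in the same direction, and the 4-week contrast called 3030. Leaving out each of the other libraries of 2 weeks gave 20 to 41 genes. The difference between the weeks was tested as an interaction, which called 1751 genes (14.9%), 1133 of them more positive at 4 weeks (9.65%) and 618 more negative (5.27%). The interaction called 963 genes when replicate 1 of GelMA 4W was left out and 1138 when replicate 1 of MFN+GelMA 4W was, and 1388 without the library with muscle markers. Of the 3035 genes called at 4 weeks 1535 also had an interaction in the same direction. Some members changed by 2 weeks already. Zic1 stood at 9.86, 10.5 and 11.4 FPKM in GelMA 2W and 0, 0.333 and 0.162 FPKM in MFN+GelMA 2W, and its log2 fold change was -3.32 at 2 weeks and -2.97 at 4 weeks, with no interaction called (adjusted p = 0.418). Eln stood at 241, 111 and 305 FPKM in GelMA 2W and 42.6, 47.7 and 32.4 FPKM in MFN+GelMA 2W, changed by -2.29 at 2 weeks (adjusted p = 0.0198) and had no interaction called (adjusted p = 0.581).

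Macrophage and giant cell genes differed between the weeks. Ptprc stood at 85.1, 53.1 and 60.2 FPKM in GelMA 2W and 55.9, 50.9 and 56.4 FPKM in MFN+GelMA 2W, and its interaction was 1.76 on the log2 scale (SE 0.26, adjusted p = 0.00374). Ocstamp stood at 0.492, 1 and 0.499 FPKM in GelMA 2W and 1.1, 3.02 and 2.69 FPKM in MFN+GelMA 2W, with an interaction of 2.55 (adjusted p = 0.00649). Neither gene was called at 2 weeks, and both interactions were still called without replicate 2 of MFN+GelMA 2W (adjusted p = 0.00945 and 0.0102). Of the 17 vacuolar ATPase genes 11 had an interaction, as did 10 of 22 glycolysis genes and 10 of 17 progenitor fibroblast genes. Without that library the counts were 9, 8 and 7. Vessel genes had a positive median at 2 weeks (0.55 for the endothelial list) and a negative one at 4 weeks (-1.18), and 6 of 19 had an interaction. Without that library the 2-week median was 0.46 and 1 endothelial gene had an interaction. Nos3 stood at 2.51, 3.25 and 0.913 FPKM in GelMA 2W and 6.92, 5.19 and 5.52 FPKM in MFN+GelMA 2W, with an interaction of -2.33 (adjusted p = 0.00484, and 0.00957 without that library).

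**Figure D5:**
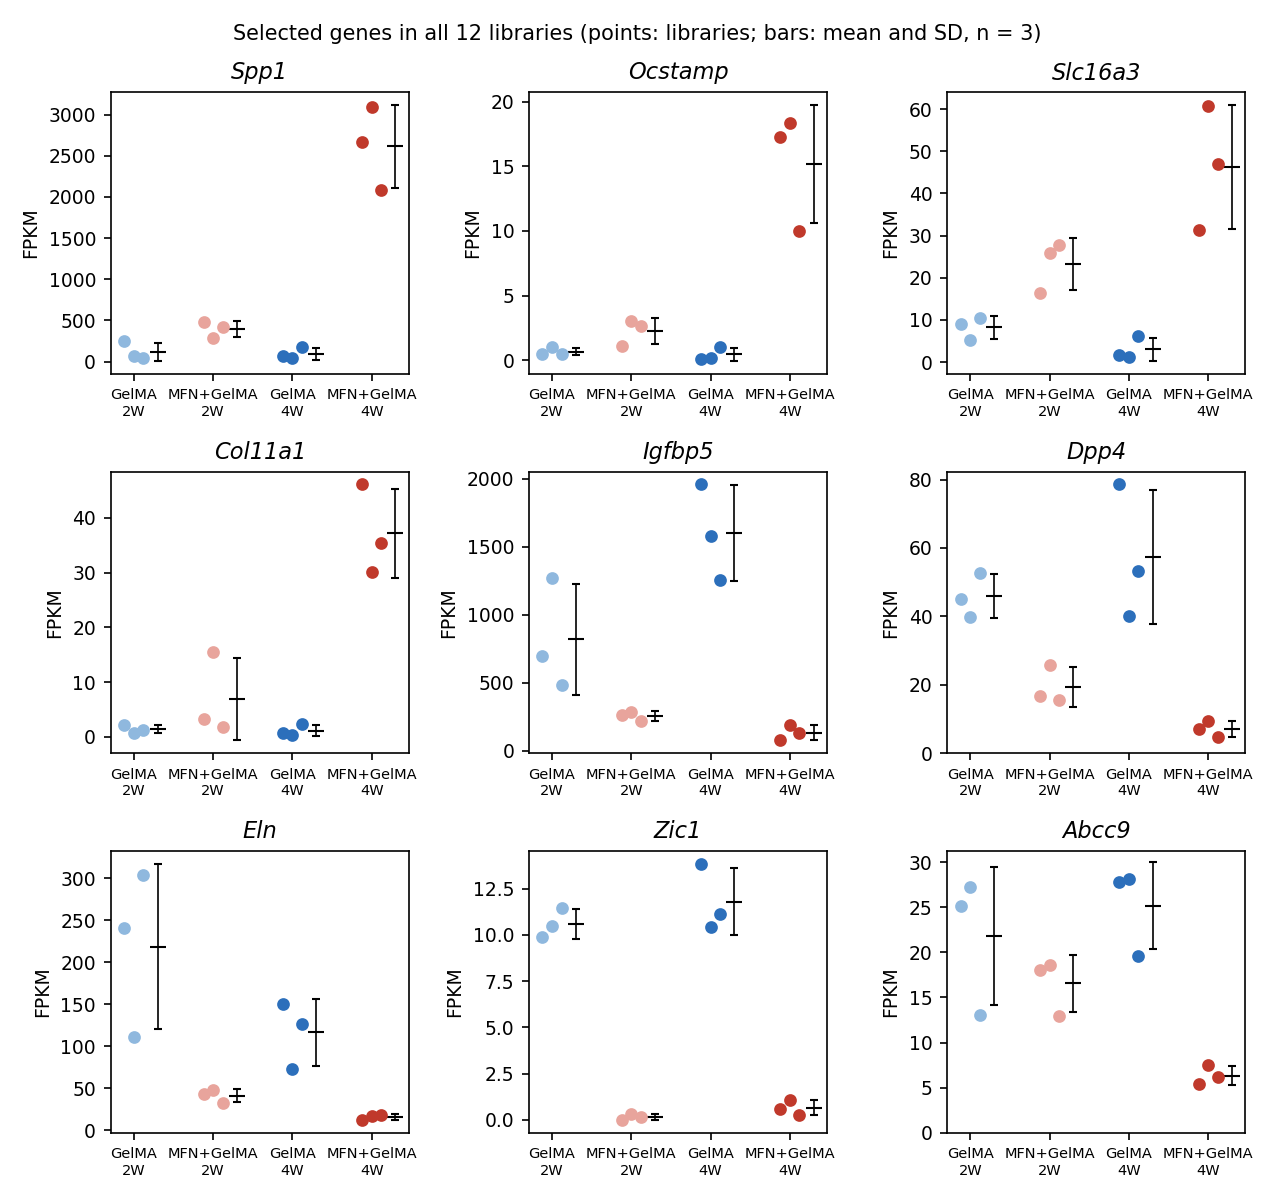
FPKM of 9 genes in all 12 libraries, with points for libraries and bars for the mean and SD (n = 3) of both materials at 2 weeks (2W) and 4 weeks (4W). Spp1, Ocstamp, Slc16a3 and Col11a1 are highest in MFN+GelMA 4W, Igfbp5, Dpp4 and Abcc9 are lowest there, and Eln and Zic1 are low in MFN+GelMA at both weeks.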

How the data were processed

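Total RNA was extracted with TRIzol, depleted of ribosomal RNA and made into stranded TruSeq libraries, per the labels' protocols. The submitters' processing notes name cutadapt 1.9.3, HISAT2, Cuffdiff and the rn6 build, while annotation and strand setting were not found in the sources used here. The authors deposited FPKM and a count-like signal for each of 12 libraries, in 22062 rows. Rows of the same symbol were summed, for 21797 genes in all, and 18 rows with no symbol were kept under their gene identifier. Whole reads could not be recovered from the deposited signal, so no count test was run and the signal served only for depth. Its totals limit the precision of low genes.

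FPKM was analysed as log2(FPKM + 1) in limma 3.58.1 (R 4.3.3), with the 4 groups of material and week in one fit (8 residual degrees of freedom), an intensity trend in the variances and Benjamini-Hochberg adjustment over 11735 genes at 0.05. In simulated data of this comparison with 11735 genes, 77 of 100 genes changed by 1 and 95 of 100 changed by 2 on the log2 scale were called, with 7 of 11535 unchanged genes.

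Named genes were the 15 largest called changes in each direction, the 4 members with the smallest p of each list, and defining markers or members that went against their list. A few genes that this rule picks are not reported here. Mrc1, Tnf, Acta2, Hif1a, Epas1, Vegfa, Fabp4 and Calcr are common markers that were picked after their values were seen. The comparison and the gene lists were chosen with earlier results of these data known. Promoter sequences came from RefSeq GRCr8 by symbol for 8774 genes, and loci are rn6 as deposited.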

Additional observations from a re-analysis of the deposited data

Results flagged for a closer look

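Of the 29 leading genes named at 4 weeks, 18 had a material difference that itself differed between 4 and 2 weeks by the interaction test in limma (adjusted p under 0.05). Over all tested genes the share was 14.9%. Of all 3035 genes called at 4 weeks, 1535 had an interaction in the same direction, so the count is not particular to the leading genes. The interaction, the 4-week minus the 2-week log2 fold change, was positive for A2m (3.24), Spp1 (2.94), Col11a1 (2.90), Sfrp5 (2.87), Ocstamp (2.55), Serpine2 (2.54), Cadm4 (2.43), Il1rn (2.41), Slc16a3 (2.32) and Slco4a1 (2.27). It was negative for Art3 (-2.76), Apcdd1 (-2.40), Mmp27 (-2.32), Mfap2 (-2.10), Igfbp5 (-2.08), Dpp4 (-1.61), Akap12 (-1.51) and Fcmr (-1.47). Spp1 stood at 248, 63.8 and 45.6 FPKM in GelMA 2W and 476, 286 and 414 FPKM in MFN+GelMA 2W, so its material difference was in the same direction at 2 weeks (2.08, adjusted p = 0.145). Dpp4 stood at 45.2, 39.9 and 52.6 FPKM in GelMA 2W and 16.7, 25.9 and 15.4 FPKM in MFN+GelMA 2W, with a log2 fold change of -1.23 at 2 weeks (adjusted p = 0.0778). Without replicate 2 of MFN+GelMA 2W, the library with muscle markers, 17 of the 18 interactions were still called. That of Spp1 was not (2.73, adjusted p = 0.0836), and Dpp4 was then called at 2 weeks (adjusted p = 0.0418). A2m passed the filter on low values only through MFN+GelMA at 4 weeks, so its 4-week difference was built in. These genes were chosen for their 4-week difference, which the interaction also contains.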

How the results depend on the processing

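At an adjusted p of 0.01, 1717 genes were called in place of 3035, 1139 higher and 578 lower. With 1 library left out, the calls ranged from 2055 to 3332 genes, the higher from 1306 to 1970, the lower from 743 to 1362 and the interaction from 963 to 1629. Replicate 1 of GelMA 4W gave the lowest counts when left out, except for the lower genes (749), where replicate 1 of MFN+GelMA 4W did (743). Without the latter the interaction called 1138. The cause was not tested. Leaving out GelMA 4W replicate 2 together with MFN+GelMA 2W replicate 2, an alternative chosen after seeing the data, gave 2590. With 1 library of 2 weeks left out, also chosen after seeing the data, the 2-week count of 54 ranged from 20 to 151. Under the other scalings, filters, pseudocounts and variance settings run, the counts of genes called, higher and lower at 4 weeks stayed within 1.5 times the reported ones. The interaction was run only without the intensity trend (1673), with a pseudocount of 0.1 (1646), with the replicate block (1200) and with libraries left out.

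Deviations of same-numbered libraries of the 2 materials had correlations of -0.0214, -0.0076 and -0.0412 at 4 weeks. At 2 weeks they were 0.00234, 0.0821 and 0.029. With 3 libraries per group these values cannot decide whether the numbers pair the libraries. A replicate block called 2597 genes, 1583 higher and 1014 lower. Of 175 called genes with recorded alternatives, 24 lost their call in at least 1 of 28 settings, 16 of them without GelMA 4W replicate 2, and 0 reversed. These are the named genes, picked for a small p or for a call that held without that library. Their stability was thus largely set by the choice. Of all 3035 called genes, 687 lost their call without GelMA 4W replicate 2. In all 6 fits without a library of 4 weeks 1844 were called. Sfn, a keratinocyte marker without a call, changed sign from 0.04 to -0.02 with TMM scaling and ranged from -0.11 to 0.32 with 1 library left out. The edgeR alternative was not run because whole reads could not be recovered. Depth limits the genes near 1 FPKM, and the comparison cannot separate cell numbers from RNA per cell.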
